A study of Rattus norvegicus with 9 samples.

Results

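The set described here holds 9 genes of the p53 pathway and of cell cycle arrest: Cdkn1a, Btg2, Plk2, Ccng1, Mdm2, Gdf15, Rrm2b, Sesn1 and Phlda3. They were taken by symbol from a table of 36267 features, and each symbol occurred in 1 row. RNA came from kidneys of rats in 3 groups of 3 animals. The icariin group received icariin, a flavonoid glycoside of Epimedium plants, into the stomach at 100 mg/kg a day for 3 days and was then taken through the injury protocol. The CIAKI group, named for contrast-induced acute kidney injury, went through that protocol alone: 200 mg/kg of the loop diuretic furosemide into the stomach, 6 h of dehydration, and iopromide, an iodinated contrast medium of 370 mg I/mL, at 15 mL/kg into the tail vein. Control rats had no treatment. Effects of furosemide, dehydration and contrast medium cannot be told apart in this design, since the controls had none of them, and no group received icariin alone. The sources used here do not give strain, sex, age or the time between injection and kidney removal.

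The transcription factor p53 is kept low in unstressed cells by MDM2, a ubiquitin ligase that marks it for degradation, and accumulates when DNA damage or other stress blocks that step. It then activates genes that halt the cell cycle, repair DNA, restrain growth signalling or start cell death, and MDM2 itself is among them, which closes a negative feedback loop. In rodent kidneys the CDK inhibitor p21, the product of Cdkn1a, is known to be induced in tubular cells after toxic and ischaemic injury. Several members also answer to other regulators, for example Gdf15 to the transcription factors of the integrated stress response and Btg2 to growth factor and cyclic AMP signals.

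Values are in CPM, a library's reads of a feature scaled to a common total. A level of 1 CPM equals 64.4 reads in the shallowest library and 90.4 reads in the deepest. The members were measured with 180 to 25840 reads per library. All 5 proximal tubule markers were present in all libraries. Their summed level was 17148 to 18648 CPM in icariin, 7779 to 10773 CPM in CIAKI and 17438 to 20741 CPM in control libraries. Of these markers Slc34a1, Lrp2 and Slc5a2 fell in CIAKI against control, while Cubn (0.91 times the control mean, adjusted p = 0.48) and Aqp1 (0.923 times, adjusted p = 0.52) overlapped control and were not called. In whole-tissue RNA, fewer cells of a type and less RNA per cell cannot be told apart. The 4 macrophage markers summed to 53.4 to 72.4 CPM in icariin, 30 to 39.3 CPM in CIAKI and 68.3 to 77.3 CPM in control libraries. Csf1r and Adgre1 make up most of that sum and fell in CIAKI against control, whereas Cd68 was not called (4.93 ± 1.93 CPM in CIAKI, 3.95 ± 0.47 CPM in control) and Cd163, too low to be tested, was higher in CIAKI (0.901 to 2.45 CPM, against 0.144 to 0.529 CPM in control). The 3 neutrophil markers summed to at most 2.38 CPM in any library. The 3 lymphocyte markers summed to 1.17 to 1.39 CPM in icariin, 0.233 to 0.431 CPM in CIAKI and 2.66 to 2.85 CPM in control libraries. The 2 measured red cell genes summed to 69.1 to 427 CPM in icariin, 682 to 846 CPM in CIAKI and 70.3 to 414 CPM in control libraries. The 2 measured endothelial markers summed to 157 to 200 CPM in icariin, 99.5 to 119 CPM in CIAKI and 169 to 203 CPM in control libraries, and no marker was at 0 in all libraries. The part of these shifts in the members' results was not tested.

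In CIAKI kidneys 6 members rose, 2 fell and 1 did not pass the test. Cdkn1a, Gdf15 and Btg2 showed the largest increases, Ccng1 about doubled its level (2.01-fold), Plk2 and Mdm2 rose less, and Rrm2b and Sesn1 fell. In icariin kidneys the same 6 genes were lower and the same 2 were higher than in CIAKI kidneys, and no member was called different from control. The test was limma on log2(CPM + 1), with p-values adjusted by Benjamini-Hochberg over all 16731 features tested and calls at an adjusted p below 0.05. All 9 members passed its filter of at least 1 CPM in at least 3 libraries. The members' calls stand against a high background: 41.3% of all features were called between CIAKI and control kidneys (20.8% higher, 20.5% lower) and 39.4% between icariin and CIAKI kidneys (19.2% higher, 20.2% lower). Between icariin and control kidneys 0.628% were called. The comparisons of icariin with CIAKI and of CIAKI with control share the CIAKI libraries. Fold changes are differences of log2(CPM + 1), and the added 1 shrinks them for genes of a few CPM.

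**Figure D1:**
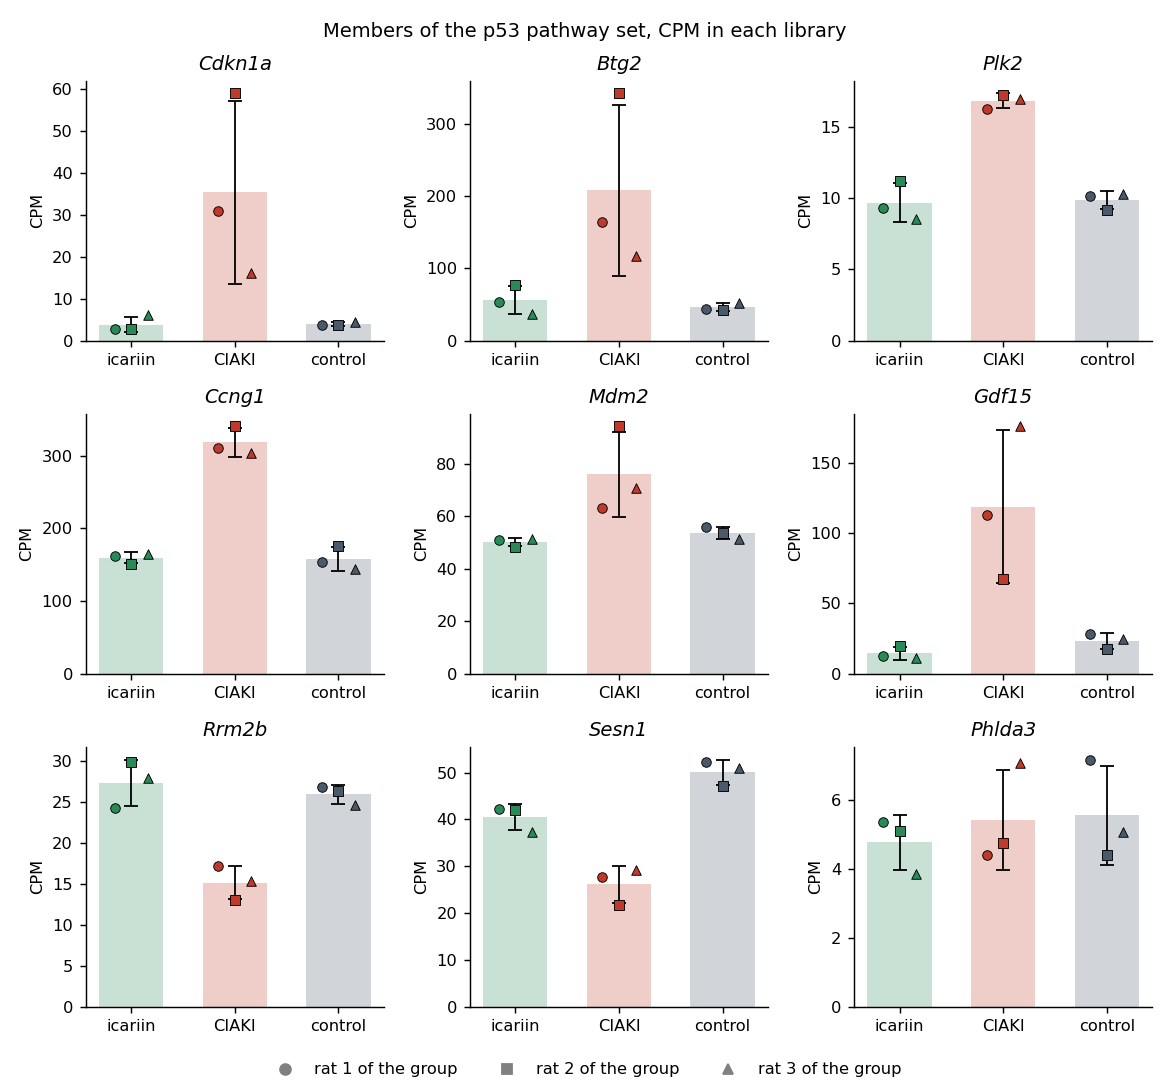
Level of each member in CPM (vertical axes, from 0) in icariin, CIAKI and control libraries. Bars are group means, error lines the SD of 3 rats, and symbols single rats; Cdkn1a, Btg2 and Gdf15 spread widely within CIAKI, while the Plk2 and Ccng1 libraries of that group lie close together.

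Promoter sequence was available from RefSeq (build GRCr8) for 8 of the 9 members (all but Rrm2b), as 300-base windows around the annotated start. The p53 half-site, the degenerate decamer bound by one p53 dimer, was sought by exact match. Its consensus is its own reverse complement, so both strands are covered at once. It was found in 3 of 8 members, Cdkn1a, Ccng1 and Sesn1, and in 7.98% of all 33469 windows. Counted by gene, as the members are, it was found in 8.57% of 27457 genes. The cyclic AMP response element TGACGTCA, also its own reverse complement, was found in Btg2 and Plk2 and in 1.83% of all windows (2% of genes). Its looser form TGACGNNA, which contains it, was found in the same 2 members and in 7.11% of windows (7.78% of genes). General promoter motifs were sought in the same windows on both strands. CCAAT was found in 6 of 8 members (39.6% of genes), GGGCGG in 7 (36% of genes) and TATAAA in 1 (15.3% of genes). An excess over all genes was thus not limited to the p53 and cyclic AMP motifs. The members with a half-site include 2 that rose in CIAKI and 1 that fell. The stretches that hold the half-sites and the TGACGTCA matches are shown with the match in capitals. They lie at chr20:7150686-7150785 (plus strand) for Cdkn1a, chr10:25685054-25685126 (minus) for Ccng1, chr20:46948537-46948566 (plus) for Sesn1, chr13:48087838-48087937 (minus) for Btg2 and chr2:43702424-43702523 (plus) for Plk2. Relative to the RefSeq start, the matches begin at -201 in Cdkn1a, -232 in Ccng1, -172 in Sesn1, -201 in Btg2 and -66 in Plk2. They describe sequence and are not measured binding.
Cdkn1a: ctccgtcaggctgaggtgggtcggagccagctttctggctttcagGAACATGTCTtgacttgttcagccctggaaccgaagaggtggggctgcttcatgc
Ccng1: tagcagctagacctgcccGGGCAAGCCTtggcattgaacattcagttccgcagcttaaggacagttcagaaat
Sesn1: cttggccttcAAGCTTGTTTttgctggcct
Btg2: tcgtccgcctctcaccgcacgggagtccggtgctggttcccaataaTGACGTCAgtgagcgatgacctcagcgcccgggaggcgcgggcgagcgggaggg
Plk2: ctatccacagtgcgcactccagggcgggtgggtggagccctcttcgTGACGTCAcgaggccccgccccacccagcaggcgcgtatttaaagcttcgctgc

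Of the genes that act directly on proliferation, Cdkn1a encodes p21, which binds and blocks cyclin-CDK complexes. Its level was 2.76, 2.73 and 5.98 CPM in icariin kidneys, 30.9, 58.9 and 16.1 CPM in CIAKI kidneys and 3.63, 3.7 and 4.41 CPM in control kidneys. Every CIAKI library lay above every library of the other groups, and the icariin and control ranges overlapped. In CIAKI over control the log2 fold change was 2.71 (SE 0.41, adjusted p = 0.0011), and mean CPM was 9.02 times as high. For icariin over CIAKI it was -2.79 (SE 0.41, adjusted p = 0.001).

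Btg2 encodes an antiproliferative protein that binds mRNA deadenylases and is induced by p53 and by growth signals. It stood at 53.9, 76.8 and 37.3 CPM in icariin, 164, 342 and 117 CPM in CIAKI and 44, 42.8 and 52.2 CPM in control kidneys. The CIAKI libraries were again above all others. Its log2 fold change was 2.0 for CIAKI over control (SE 0.37, adjusted p = 0.0027) and -1.78 for icariin over CIAKI (SE 0.37, adjusted p = 0.005). Without the library CIAKI 2 the first of these was 1.56.

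Plk2 encodes a polo-like kinase that acts in G1 phase and at the centrosome. It stood at 9.33, 11.2 and 8.53 CPM in icariin, 16.3, 17.3 and 17 CPM in CIAKI and 10.2, 9.15 and 10.3 CPM in control kidneys. Its change was modest but its spread in CIAKI was the smallest of the set (SD 3.04% of the mean), and the CIAKI libraries did not overlap the others. The log2 fold changes were 0.72 for CIAKI over control (SE 0.12, adjusted p = 0.0016) and -0.75 for icariin over CIAKI (SE 0.12, adjusted p = 0.0015).

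Ccng1 encodes cyclin G1, which binds protein phosphatase 2A and takes part in the regulation of MDM2. With 162, 151 and 165 CPM in icariin, 311, 340 and 303 CPM in CIAKI and 153, 176 and 144 CPM in control kidneys, it was close to constant within each group. The CIAKI libraries lay at 1.92 to 2.15 times the control mean. Its log2 fold changes of 1.01 for CIAKI over control (SE 0.09, adjusted p = 7.2e-05) and -0.99 for icariin over CIAKI (SE 0.09, adjusted p = 9.9e-05) had the smallest adjusted p of the set in both comparisons.

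Mdm2, the feedback inhibitor of p53, moved least among the members that rose. Its level was 51.1, 48.4 and 51.3 CPM in icariin, 63.2, 94.3 and 70.8 CPM in CIAKI and 55.9, 53.7 and 51.3 CPM in control kidneys. The lowest CIAKI library was still above the highest control library. Its log2 fold change was 0.48 for CIAKI over control (SE 0.13, adjusted p = 0.015) and -0.57 for icariin over CIAKI (SE 0.13, adjusted p = 0.0075). The first call ended without control 3 (adjusted p = 0.051), and the fold change was 0.32 without CIAKI 2.

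Gdf15 encodes a secreted stress factor of the TGF-beta family whose receptor GFRAL is found in the brainstem. It stood at 12.8, 19.4 and 11.1 CPM in icariin, 113, 67.4 and 176 CPM in CIAKI and 28.3, 17.2 and 25 CPM in control kidneys. The CIAKI libraries were above all others, and icariin 2 lay above control 2 while the other icariin libraries lay below every control library. On the log2 scale the fold change was 2.21 for CIAKI over control (SE 0.34, adjusted p = 0.0011) and -2.89 for icariin over CIAKI (SE 0.34, adjusted p = 0.00036). For icariin over control it was -0.67 (95% interval -1.43 to 0.09, adjusted p = 0.57), which was not called.

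The members that fell serve nucleotide supply and growth restraint. Rrm2b encodes p53R2, a subunit of ribonucleotide reductase that supplies deoxynucleotides for DNA repair and for mitochondrial DNA in cells outside S phase. It stood at 24.2, 29.8 and 27.9 CPM in icariin, 17.1, 13 and 15.3 CPM in CIAKI and 26.8, 26.3 and 24.6 CPM in control kidneys. The CIAKI libraries lay below all others. The log2 fold change was -0.75 for CIAKI over control (SE 0.12, adjusted p = 0.0012) and 0.81 for icariin over CIAKI (SE 0.12, adjusted p = 0.00092).

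Sesn1 encodes sestrin 1, a stress protein that restrains mTORC1 through the GATOR complexes. It stood at 42.2, 42 and 37.3 CPM in icariin, 27.6, 21.7 and 29.1 CPM in CIAKI and 52.3, 47.1 and 50.9 CPM in control kidneys. The 3 groups did not overlap, with CIAKI lowest and icariin between CIAKI and control. The log2 fold change was -0.92 for CIAKI over control (SE 0.11, adjusted p = 0.00037) and 0.62 for icariin over CIAKI (SE 0.11, adjusted p = 0.0028). For icariin over control it was -0.30 (95% interval -0.56 to -0.05, adjusted p = 0.37), so this gap did not pass over all features.

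Phlda3 encodes a pleckstrin homology protein that competes with the kinase Akt for membrane lipids. Its groups overlapped, with 5.36, 5.1 and 3.85 CPM in icariin, 4.4, 4.76 and 7.08 CPM in CIAKI and 7.18, 4.42 and 5.07 CPM in control kidneys. Fold changes on the log2 scale were -0.03 for CIAKI over control (95% interval -0.52 to 0.45, adjusted p = 0.92) and -0.14 for icariin over CIAKI (95% interval -0.63 to 0.35, adjusted p = 0.64).

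**Figure D2:**
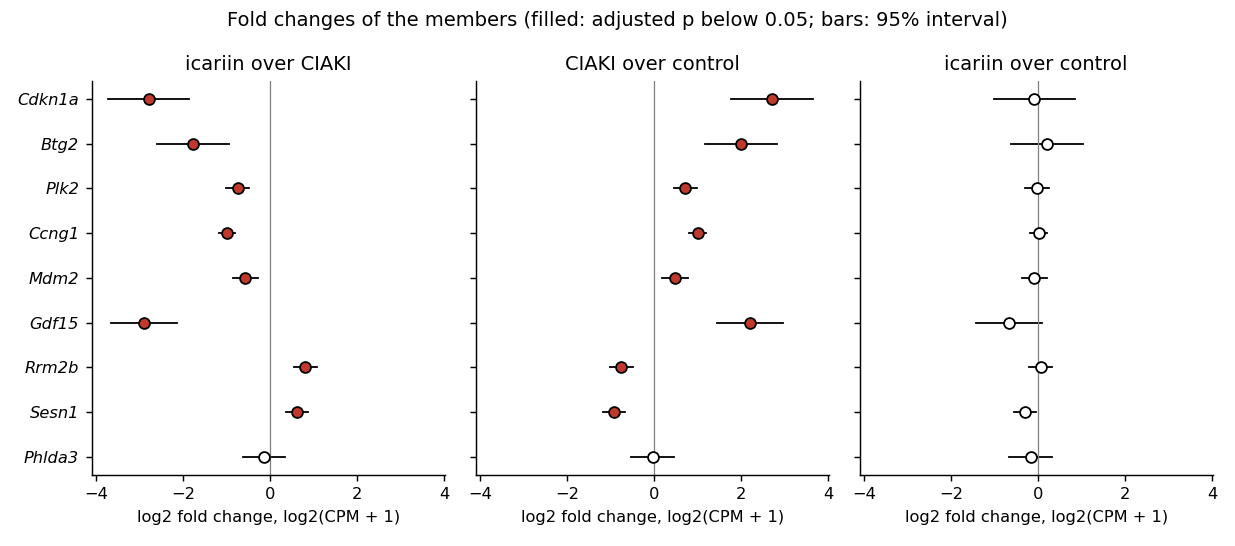
Log2 fold change of each member on the log2(CPM + 1) scale (horizontal axes) in the 3 comparisons, from all 9 libraries. Points are estimates, lines 95% intervals, and filled points have an adjusted p below 0.05: 8 of 9 in the left and middle panels and none in the right panel.

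Between icariin and control kidneys limma called 0 of 9 members, with 1 (Sesn1) at an unadjusted p below 0.05, which 10.2% of all features reached. On recovered reads edgeR and DESeq2 also called 0 members (0.454% and 3.13% of all features). The estimates ran from -0.67 for Gdf15 to 0.21 for Btg2. The intervals differ in width: that of Ccng1 was -0.18 to 0.21, whereas that of Cdkn1a was -1.02 to 0.84. Cdkn1a stood at a few CPM in these groups, where the added 1 shrinks fold changes, so a 2-fold difference in CPM is not excluded. Groups did not overlap for 8 of 9 members in CIAKI against control (53.4% of all features), for 8 of 9 in icariin against CIAKI (50.7%) and for 1 of 9 in icariin against control (19.3%).

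The rats of the CIAKI group differed from each other in a gene-dependent way. CIAKI 2 held the highest level of 5 members, Cdkn1a, Btg2, Plk2, Ccng1 and Mdm2, and the lowest level of Gdf15, Rrm2b and Sesn1. Such counts were also reached in the other groups. Control 1 held the highest level of 5 of the 9 members in its group, and icariin 3 and control 2 each held the lowest of 5 in theirs. Relative to the control mean, Cdkn1a stood at 7.9, 15 and 4.11 times in CIAKI 1, 2 and 3 and Btg2 at 3.55, 7.39 and 2.52 times. Gdf15 ran the other way, at 4.81, 2.87 and 7.48 times. CIAKI 2 was also the highest library of the group for the stress transcription factor gene Atf3 (23.7, 61.9 and 24.3 CPM in CIAKI 1, 2 and 3) and for Atf4 (232, 304 and 186 CPM). It was the highest for 3 of 6 tested genes of the integrated stress response and for 3 of 6 tested immediate early genes, and others ran differently, such as Asns (28.8, 24.6 and 22.6 CPM in CIAKI 1, 2 and 3) and Egr1 (60.2, 91.8 and 143 CPM). These genes are named with their values known. The order of 3 rats is a description and carries no test.

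**Figure D3:**
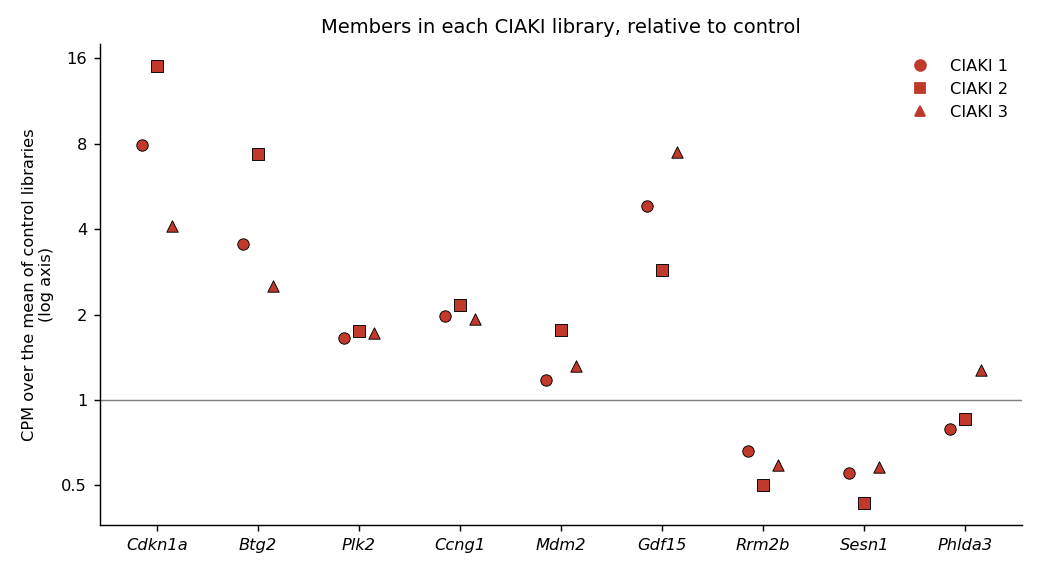
Level of each member in the 3 CIAKI libraries divided by the mean of the control libraries (vertical axis, log scale; the line marks 1). CIAKI 2 is the highest for Cdkn1a at 15 and the lowest for Gdf15 at 2.87, and all CIAKI libraries lie below 1 for Rrm2b and Sesn1.

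Levels of different genes can be compared only per transcript length, for which the authors' deposited table of 3975 selected mRNAs gives FPKM for 7 members in icariin and CIAKI libraries, Mdm2 and Phlda3 not being among them. In that table Ccng1 led in icariin kidneys at 39.4 ± 2.19 FPKM (SD, n = 3). Rrm2b at 17.9 ± 1.86, Btg2 at 17.1 ± 5.87 and Gdf15 at 12.4 ± 3.63 FPKM followed within each other's spread or near it, then Sesn1 at 9.23 ± 0.524 FPKM. Plk2 at 2.74 ± 0.359 and Cdkn1a at 2.2 ± 1.18 FPKM were lowest and not separated. In CIAKI kidneys the same table puts Gdf15 at 100 ± 46.8, Ccng1 at 77.6 ± 5.41 and Btg2 at 62.4 ± 36.2 FPKM at the top with overlapping spreads, and Cdkn1a at 21 ± 14 FPKM next. Its CIAKI libraries overlapped those of Rrm2b (9.68 ± 1.16 FPKM in that table) and lay above those of Sesn1 (5.82 ± 0.871) and Plk2 (4.67 ± 0.231). The table was selected by the authors on these libraries, so it supports no test of the difference between the 2 groups.

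Among the regulators of p53, Mdm4, a partner of MDM2 that masks the activation domain of p53, stood at 39.1 ± 1.89 CPM in icariin, 28.8 ± 1.4 CPM in CIAKI and 37.6 ± 2.65 CPM in control kidneys (SD, n = 3 each). Its log2 fold change was -0.37 for CIAKI over control (adjusted p = 0.0058) and 0.43 for icariin over CIAKI (adjusted p = 0.0033). Usp7, a deubiquitinase of MDM2 and p53, rose by 0.36 in CIAKI and lay at -0.31 for icariin over CIAKI. Chek2, a checkpoint kinase, rose by 0.63 in CIAKI, a call that ended in 6 alternatives, among them leaving out CIAKI 1 (adjusted p = 0.07), CIAKI 3 (0.073), control 1 (0.081) or control 3 (0.067).

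Of 27 other p53 targets, 25 were in the table and 23 were tested. In CIAKI kidneys 8 of them rose, 0 fell and 15 did not pass, with a median log2 fold change of 0.27 against -0.00 for all features. Perp, a desmosomal protein gene tied to cell death, rose by 0.65 (183 ± 16.1 CPM in CIAKI, 116 ± 5.91 CPM in control, SD, n = 3 each, adjusted p = 0.0007). The pore-forming death gene Bax rose by 0.48, the growth arrest gene Gadd45a by 0.86 and Rps27l, a ribosomal protein relative, by 0.60. In icariin against CIAKI 7 fell and 0 rose (median -0.19, against 0.02 for all features), with Aen, a nuclease gene, at -1.09, Perp at -0.72, Bax at -0.65 and Rps27l at -0.64. These calls make up 34.8% of the tested targets in CIAKI against control, where 20.8% of all features were called higher and 41.3% in either direction. In icariin against CIAKI they make up 30.4%, where 20.2% of all features were called lower and 39.4% in either direction. Sesn2, a relative of Sesn1 that also answers to Atf4, stood at 157 ± 36.6 CPM in CIAKI and 138 ± 27.5 CPM in control kidneys (log2 fold change 0.18, adjusted p = 0.52). Sesn2 is named with its values known.

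Among relatives of the members, Rrm2, the S phase partner of the ribonucleotide reductase that Rrm2b can replace, stood at 4.83 ± 1.31 CPM in icariin, 0.877 ± 0.142 CPM in CIAKI and 6.3 ± 1.01 CPM in control kidneys (SD, n = 3 each). Its log2 fold change was -1.95 for CIAKI over control (adjusted p = 0.00014), the same direction as Rrm2b. Plk1, the mitotic polo-like kinase, lay at -1.47 for CIAKI over control (adjusted p = 0.00037), opposite to Plk2. Phlda2 rose by 1.26 in CIAKI (adjusted p = 0.0018) while Phlda3 did not pass. Sesn3 stood at 108, 126 and 113 CPM in icariin, 116, 108 and 130 CPM in CIAKI and 161, 166 and 184 CPM in control kidneys. Its log2 fold change over control was -0.53 in CIAKI (adjusted p = 0.0021) and -0.56 in icariin kidneys (adjusted p = 0.04). For icariin over control, Sesn3 was the sole call among the 57 tested regulators, targets, inhibitors and relatives (0.628% of all features were called). That call ended with any 1 of the 6 libraries left out (adjusted p = 0.066 to 0.18), with no filter on low values (0.074) and with a replicate block (0.069). Among all 10 relatives, 2 rose, 3 fell and 5 did not pass in CIAKI (median 0.07), and 2 rose, 3 fell and 5 did not pass in icariin against CIAKI (median -0.03). Calls made up 50% of the relatives in each of these comparisons, against 41.3% and 39.4% of all features.

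Of the other CDK inhibitors, Cdkn1b (p27) stood at 48.1 ± 5.08 CPM in CIAKI and 52.7 ± 3.1 CPM in control kidneys (log2 fold change -0.13, adjusted p = 0.25) and Cdkn1c (p57) at 14.6 ± 4.17 CPM in CIAKI and 16.1 ± 0.975 CPM in control kidneys (-0.17, adjusted p = 0.53). Both are named with their values known. Cdkn2a, with 0 CPM in all libraries, and Cdkn2b, with 0.0442 to 0.17 CPM in icariin, 0.28 to 0.697 CPM in CIAKI and 0.0274 to 0.316 CPM in control libraries, were too low to be tested. Cdkn2c, an inhibitor of CDK4 and CDK6, fell by 0.59 on the log2 scale in CIAKI (adjusted p = 0.0097). Btg3, a relative of Btg2, rose by 1.23 (9.71 ± 1.2 CPM in icariin, 25.7 ± 1.04 CPM in CIAKI and 10.5 ± 1.67 CPM in control kidneys, adjusted p = 0.00019 for CIAKI over control). Btg1, a further relative, named with its values known, rose by 0.67 in CIAKI (adjusted p = 0.018) and lay at -0.76 for icariin over CIAKI (adjusted p = 0.011). The repressor gene E2f4 rose by 0.64 and the retinoblastoma gene Rb1 fell by 0.33. Of 13 tested genes of this list 3 rose and 3 fell in CIAKI (median -0.10), and 4 rose and 4 fell in icariin against CIAKI (median 0.20). Calls made up 46.2% and 61.5% of the list, against 41.3% and 39.4% of all features.

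Genes that drive or mark cycling mostly fell in CIAKI. Of 18 tested, 12 fell, 1 rose (Cdk2, named with its value known, 0.31, adjusted p = 0.041) and 5 did not pass in CIAKI (median -0.64). Calls made up 72.2% of the list, against 41.3% of all features. Mki67, the proliferation marker, stood at 21.5 ± 5.49 CPM in icariin, 7.38 ± 0.415 CPM in CIAKI and 37.6 ± 2 CPM in control kidneys (SD, n = 3 each). The mitotic cyclin genes Ccna2 and Ccnb1 lay at -1.73 and -1.19 for CIAKI over control. In icariin against CIAKI 8 rose, 2 fell and 8 did not pass (median 0.40). The share called was 55.6%, against 39.4% of all features. Among those that rose were Ccnd1, the G1 cyclin D1 gene, at 1.79 and Ccnd3 at 0.59. For icariin over control limma called 0 of the 18 (0.628% of all features), with a median of -0.25. Ccnb1 and Mki67 lay at -0.85 and -0.81. Of the 18 estimates 4 were above 0, among them Ccne2 at 0.52. DESeq2 on recovered reads, which called 3.13% of all features in this comparison, called Ccnb1 and Mki67 (adjusted p = 0.00066 and 0.0012).

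Stress programmes that share targets with p53 were measured alongside. Of 6 tested genes of the integrated stress response, 5 rose in CIAKI (83.3%, median 1.40) and 5 fell in icariin against CIAKI (83.3%, median -1.39). Of all features 41.3% and 39.4% were called in these comparisons. Atf4, the central transcription factor of that response, stood at 88.5 ± 2.24 CPM in icariin, 240 ± 59.9 CPM in CIAKI and 92.6 ± 5.66 CPM in control kidneys. Asns, the asparagine synthetase gene, rose by 1.46 and Trib3 by 1.48. Of 6 tested immediate early genes 1 (Atf3) rose in CIAKI, at 36.6 ± 21.9 CPM against 6.13 ± 0.494 CPM in control kidneys (log2 fold change 2.25, adjusted p = 0.0029), and 5 did not pass. This is 16.7% called, against 41.3% of all features. The part of these programmes in the members' changes was not tested.

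**Figure D4:**
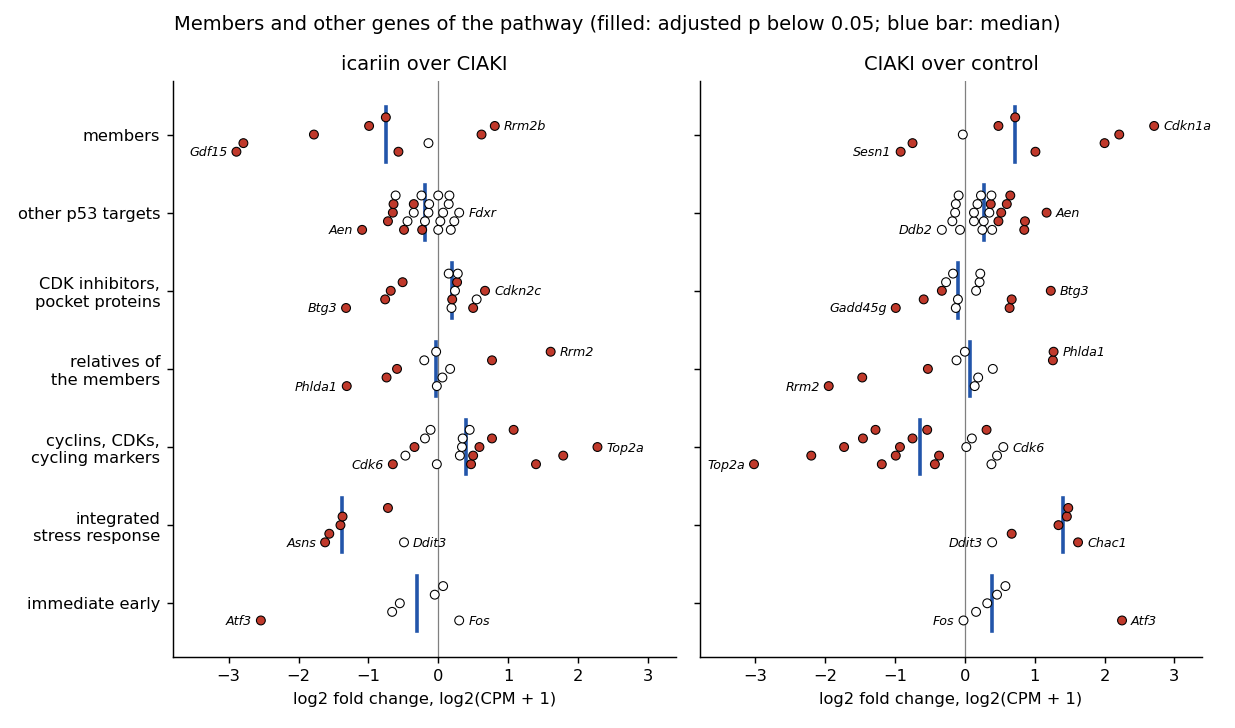
Log2 fold changes on the log2(CPM + 1) scale (horizontal axes) of the members and of 6 other gene lists, for icariin over CIAKI (left) and CIAKI over control (right). Each point is a gene, filled where the adjusted p was below 0.05, the blue bars are list medians, and the lowest and highest gene of each list is named. In both panels the median lies furthest from 0 for the integrated stress response genes and nearest to 0 for the relatives of the members.

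For 3 members the genes with the most similar profile over the 9 libraries were sought, by Pearson correlation of log2(CPM + 1). Only tested Ensembl genes with a symbol were ranked, and the other members were left out. The ranking is a description in which the points share the 3 groups. Nearest to Cdkn1a were Cldn1 (r = 0.990), a claudin gene of tight junctions, Nup54 (0.987), a nuclear pore gene, and Plin2 (0.985), which encodes a lipid droplet coat protein. Plin2 stood at 45.8, 45.5 and 54.7 CPM in icariin, 506, 716 and 256 CPM in CIAKI and 44.8, 42.8 and 48.9 CPM in control kidneys. Its order of CIAKI rats was that of Cdkn1a, which the choice by correlation favours. Nearest to Gdf15 were Thumpd3 (0.983), Zfp583 (0.982) and the kinase gene Wnk3 (0.981). Nearest to Rrm2b were AABR07044759.1 (0.990), the histone methyltransferase gene Kmt5c (0.989) and the ATP synthase subunit gene Atp5mg (0.987).

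MicroRNAs tied to the pathway could be read from the authors' deposited table of 128 selected miRNAs, which holds icariin and CIAKI libraries and no control library. Of 15 miRNA names looked for, 5 mature forms were in it. Of these, 4 are shown, 5′ to 3′ from RefSeq (GRCr8), with the seed, bases 2 to 8, in capitals. No seed is shared among them.
rno-miR-17-5p: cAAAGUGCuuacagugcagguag
rno-miR-21-5p: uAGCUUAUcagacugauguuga
rno-miR-145-5p: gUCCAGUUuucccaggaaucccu
rno-miR-194-3p: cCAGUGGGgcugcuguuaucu

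In the authors' deposited table, miR-17-5p stood at 131, 147 and 134 TPM in icariin and 247, 279 and 192 TPM in CIAKI kidneys. Its human counterpart represses CDKN1A. Both this miRNA and the Cdkn1a mRNA were higher in the CIAKI group, and a link between them was not tested. The injury-associated miR-21-5p stood at 42388, 55156 and 54944 TPM in icariin and 120616, 94838 and 99572 TPM in CIAKI kidneys in the same table. In the authors' deposited table miR-145-5p, whose human form is processed more with active p53, stood at 1069, 1248 and 1050 TPM in icariin and 1420, 2878 and 1813 TPM in CIAKI kidneys. In the same deposited table of the authors, miR-194-3p, from a locus that p53 activates in human cells, stood at 82.5, 73.1 and 75.4 TPM in icariin and 44.3, 37.1 and 71.5 TPM in CIAKI kidneys, the only one of the 4 that was higher in icariin. In TPM the 2 groups did not overlap for any of these 4. In the deposited read counts, which are not scaled, they overlapped for miR-17-5p, miR-21-5p and miR-145-5p but not for miR-194-3p. The table holds miRNAs that the authors selected on these libraries, which favours groups without overlap, so no test was made. The other strand, miR-21-3p, stood in that deposited table at 1.67, 3.13 and 5.69 TPM in icariin and 11.6, 8.44 and 10.7 TPM in CIAKI kidneys.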

How the data were processed

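The authors deposited the main table in CPM. Its steps gave whole reads back in 100% of cases at a tolerance of 0.1, and these equalled the deposited read counts of selected mRNAs in 23850 of 23850 values. The authors also deposited FPKM for those mRNAs and values headed TPM, with read counts, for selected miRNAs, per the file headers. The submitters' processing notes list Bowtie 0.12.2 and mm8. The build is a mouse one while the identifiers are rat Ensembl genes, so the reference is unclear, and the counter, annotation and strand setting are not stated. The design text speaks of 3 rats in each group.

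Here, limma 3.58.1 (R 4.3.3) with an intensity trend was fitted to log2(CPM + 1) of 16731 features (1 CPM or more in 3 or more libraries), with all 9 libraries and group as the factor, two-sided, with Benjamini-Hochberg adjustment. It was also run on simulated counts with far fewer changed genes than were called here, and no result rests on that run. As alternatives, edgeR 4.0.16 and DESeq2 1.42.0 on recovered reads called 7028 and 7795 features for CIAKI against control, 6745 and 7595 for icariin against CIAKI and 76 and 524 for icariin against control. Other pseudocounts, filters, scalings, a replicate block and leaving out libraries were also tried. Members and gene lists were chosen with earlier results of these data known. Named genes are all members and, from each list and comparison, up to 4 with the smallest p; others are said to be named with their values known. Likeness was ranked for Cdkn1a, Gdf15 and Rrm2b. The tables of circRNAs and lncRNAs were not used here. A gene of the list of p53 regulators, and the counts over that list, are not reported here.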

Additional observations from a re-analysis of the deposited data

How the results depend on the processing

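Of the 16 called changes of members, 15 kept their direction and call under all 18 alternatives each, and that of Mdm2 for CIAKI over control was lost without control 3. Calls for Cdkn1a spanned log2 fold changes of 2.03 (pseudocount 5) to 3.18 (edgeR) for CIAKI over control. The number of members called was 7 to 8 for CIAKI against control, 8 for icariin against CIAKI and 0 for icariin against control when single libraries were left out. Over all features, the 105 calls for icariin against control were 52 with no filter on low values, 524 with DESeq2 and 31 to 61 with 1 library left out. The 1 call among other pathway genes in that comparison was 0 with no filter, 3 with DESeq2, and 0 with any 1 library left out. Deviations of same-numbered libraries from their group means had correlations of -0.035 to 0.081 over 9 pairs, against -0.102 to 0.036 for other pairs. For icariin against CIAKI the same-numbered libraries 1, 2 and 3 gave 0.017, 0.069 and 0.081. With 3 rats in a group this check cannot decide whether replicate numbers pair the rats. With a replicate block the count of members called was 8, 8 and 0 as before, and that of other pathway genes for icariin against control was 0. Other scalings and tools moved the median log2 fold change of all features by at most 0.046. Allowing 1 mismatch outside the core C and G, which stayed fixed, the p53 half-site was found in 4 of 8 members. It was then in 49% of all windows and 50.9% of genes. Removing libraries leaves 2 rats in a group, which limits these checks.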
